A study of Arabidopsis thaliana with 15 samples.

Results

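The genes described here encode 2 opposing classes of enzyme, UDP-glycosyltransferases (UGT genes) and beta-glucosidases (BGLU genes), measured in roots of Arabidopsis thaliana. The members were the probe sets annotated to exactly 1 gene whose symbol begins with UGT or BGLU and a number, leaving out the 3 genes UGT72E1, UGT72E2 and UGT72E3. This gave 64 genes, 44 UGT and 20 BGLU, of 13350 genes with a probe set of their own in the annotation used. Each of the 64 had a single probe set. The rule uses symbols and no measured value, but it was set with earlier results of these data known. A further 4 probe sets that detect a UGT or BGLU gene together with another gene were left out. UGT73B2, UGT73B3, UGT71D1, UGT89B1, BGLU21 and BGLU22 were therefore not analysed here. The annotation gave 1 gene to 13513 and several to 503 of the 22746 probe sets that are not controls. A UGT or BGLU gene that it does not name was not analysed either, even if the array detects it.

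Plant UDP-glycosyltransferases transfer a sugar, usually glucose, from a UDP-sugar to small molecules such as hormones, flavonoids, phenolic acids and glucosinolate precursors, which makes them more soluble and often inactive or ready for storage. Beta-glucosidases of glycoside hydrolase family GH1 remove the sugar again and release the free compound. In roots, enzymes of these classes act on compounds such as monolignols, coumarins, flavonols, salicylic acid, cytokinins, auxin and abscisic acid.

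Root RNA of 2-week-old plants, grown on modified Knop's medium, was measured on 15 arrays, with 3 arrays per genotype and 5 genotypes. Both ecotypes used, Col-0 and WS, were included as wild types. The triple mutant grf1/grf2/grf3 is mutated in the genes of the growth-regulating factors GRF1, GRF2 and GRF3, transcription factors that are targets of the microRNA miR396, and it is labelled with both ecotypes. P35S:rGRF1, labelled as ecotype Col-0, and P35S:rGRF3, labelled as WS, carry a miR396-resistant GRF1 or GRF3 under the cauliflower mosaic virus 35S promoter, which is active in most cell types. The labels do not say how many lines or plants each group stands for, nor that replicates were grown separately, so the p-values rest on the spread among these arrays, which may be technical. All values are log2 MAS5 signals of whole roots. In such bulk samples a lower level per cell and fewer cells of a type cannot be told apart.

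Several facts about the arrays bear on every comparison. The 18 hybridization control probe sets averaged 10.72 to 11.2 on the WS and mutant arrays and 9.68 to 10.33 on those of the other 3 genotypes, without overlap. The difference between the 3' and 5' probe sets of the actin control was 1.77 ± 0.41 for WS (log2, SD, n = 3) and 1.54 ± 0.23 for the mutant. Lower values were found for Col-0 (0.98 ± 0.07), P35S:rGRF1 (1.04 ± 0.17) and P35S:rGRF3 (1.14 ± 0.24). Actin values of single arrays overlapped, with 1.38 for P35S:rGRF3 replicate 1, 1.37 for WS replicate 2 and 1.28 for mutant replicate 3. The labels used here name no batch, so the sets of arrays are inferred from the hybridization controls. By these controls, comparisons of the mutant with WS, and of either line with Col-0, stayed within 1 set of arrays. In the other comparisons the effect of the array set cannot be told apart from that of the genotype. The mutant is labelled with both ecotypes, so against WS its mutations cannot be told apart from any Col-0 part of its background. Probes were designed from Col-0 sequence, and a poorer match to RNA of WS or the mutant was not tested. The arrays labelled P35S:rGRF3 read nearer to Col-0 than to WS at most probe sets that differed strongly between the wild types. Of 114 probe sets at least 8-fold lower in WS than in Col-0, P35S:rGRF3 lay nearer to Col-0 at 106, P35S:rGRF1 at 110 and the triple mutant at 6. Both lines lie in the array set of Col-0 and the mutant in that of WS. Ecotype and array set therefore cannot be told apart in these counts, which do not decide the ecotype of P35S:rGRF3. Because it shares the array set of Col-0, P35S:rGRF3 is set against Col-0 first and WS second. The annotation used, which leaves many probe sets without a gene, gave a probe set to 2 of 22 listed root marker genes. These root hair expansin genes, EXPA7 and EXPA18, read 9.06 to 9.88 and 8.90 to 9.91 over the genotype means. Of 17 shoot genes 2 had a probe set in the annotation, RCA and LHCB4.1, at 9.51 to 10.32 and 9.10 to 10.42. Levels of different probe sets cannot be ranked against each other, so these values are a weak check of the organ. LHCB4.1 fell by 0.88 in the mutant against WS (adjusted p = 0.0338), and EXPA18 fell by 0.54 in P35S:rGRF1 against Col-0 (adjusted p = 0.0465). Losses of these calls under the alternative runs are not given here, and the part of these genes in the results was not tested. GRF1, GRF2 and GRF3 themselves were not analysed here.

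Most members were too dim to test. Testing required a mean log2 signal over the 15 arrays of 6.845 or more, the 40th percentile of the array, and 29 members passed: 22 UGT and 7 BGLU genes. Among the UGT families, the counts tested were 5 of 9 in UGT71, 3 of 7 in UGT73, 3 of 3 in UGT74, 4 of 8 in UGT76, 1 of 3 in UGT78, 1 of 5 in UGT84 and 1 of 5 in UGT85. UGT72B3, UGT80B1, UGT87A2 and UGT88A1, each the only member of its family under the rule and annotation used, were all tested. The family counts cover members only and not whole families. Of the 35 dimmer members 30 stayed below that value on every array. BGLU40 (mean 6.81) and UGT73B4 (6.60) lay just under it and UGT72B3 (7.0) and BGLU45 (7.09) just above. A member can also pass through 1 genotype in which it is high, so the counts below describe the genes tested and not the whole families.

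**Figure D1:**
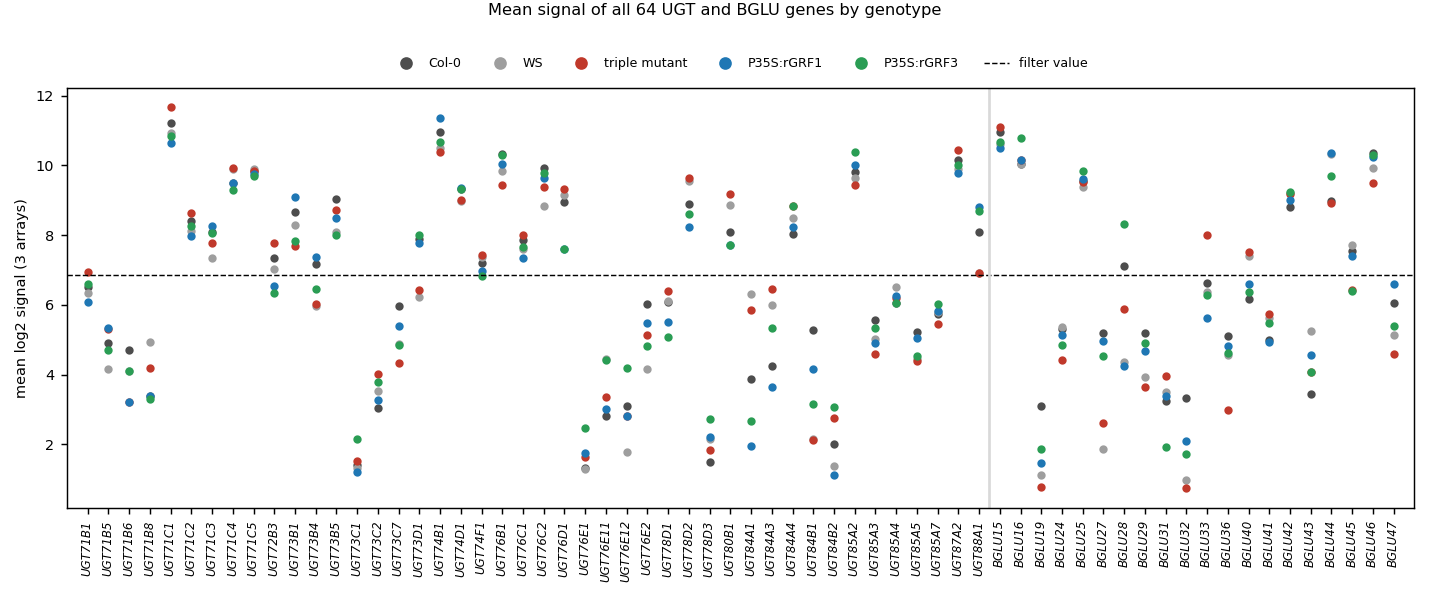
Mean log2 signal (3 arrays) of each of the 64 genes in the 5 genotypes, with the filter value of 6.845 as a dashed line and the BGLU genes right of the grey line. The 29 tested genes lie around or above the line, while 30 of the others stayed below it on every array.

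In the triple mutant, UGT genes that changed against WS all rose, and the larger changes among BGLU genes were falls. Of the 22 UGT genes 5 rose and 0 fell, and of the 7 BGLU genes 1 rose and 2 fell, at an adjusted p under 0.05 (limma, Benjamini-Hochberg over all probe sets tested). The 8 called genes made up 27.6% of the members tested, where 13.9% of all 13648 probe sets tested were called, 7.38% higher and 6.54% lower. The median difference was 0.13 over the 29 genes and -0.01 over all probe sets. A share read against this background describes these genes and is not a test of the families.

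UGT71C1, whose enzyme glucosylates caffeic acid and flavonoids in vitro, was the UGT gene with the smallest adjusted p in this comparison. Its log2 signal was 11.64, 11.68 and 11.73 on the mutant arrays and 10.80, 11.03 and 10.96 on the WS arrays. The Col-0 arrays read 11.50, 11.10 and 11.09. All mutant arrays lay above all wild-type arrays of both ecotypes. Relative to WS this was a 1.68-fold rise, 0.75 on the log2 scale (SE 0.12, adjusted p = 0.000618), and relative to Col-0 it rose by 0.45 (SE 0.12, adjusted p = 0.00499). The other tested genes of the UGT71 family were not called: UGT71C2 was at 0.52 (adjusted p = 0.0796), UGT71C3 at 0.45 (0.148), UGT71C4 at 0.03 (0.895) and UGT71C5, which makes the glucose ester of abscisic acid, at -0.06 (0.742).

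UGT73B5, a gene of the pathogen response, read 8.81, 8.65 and 8.72 on the mutant arrays, 8.06, 8.28 and 7.94 on those of WS, and 9.0, 8.90 and 9.24 on those of Col-0. The mutant arrays lay between the wild types and overlapped with neither. From WS it differed by 0.63 (SE 0.15, adjusted p = 0.00892) and from Col-0 by -0.32 (adjusted p = 0.0858). UGT76C2, whose enzyme inactivates cytokinins by N-glucosylation, had the same order, with 9.42, 9.50 and 9.25 for the mutant, 8.86, 8.89 and 8.76 for WS, and 10.09, 9.81 and 9.90 for Col-0. Relative to WS it rose by 0.55 (SE 0.11, adjusted p = 0.00343) while relative to Col-0 it fell by 0.54 (SE 0.11, adjusted p = 0.000839). The rises of UGT73B5 and UGT76C2 over WS thus left both genes below the Col-0 mean. The other cytokinin N-glucosyltransferase gene, UGT76C1, was at 0.42 against WS (adjusted p = 0.0974).

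UGT72B3, a relative of the monolignol glucosyltransferase gene UGT72B1, read 7.96, 7.78 and 7.57 in the mutant and 6.98, 7.03 and 7.06 in WS, a rise of 0.75 (SE 0.24, adjusted p = 0.0458). UGT87A2, which takes part in the control of flowering time, read 10.38, 10.52 and 10.41 in the mutant and 10.01, 9.78 and 9.92 in WS, a rise of 0.53 (SE 0.17, adjusted p = 0.0422). In both genes the mutant arrays lay above those of WS. Against Col-0, whose arrays read 7.70, 7.68 and 6.69 at UGT72B3 and 10.52, 9.86 and 10.09 at UGT87A2, neither was called (0.42, adjusted p = 0.165, and 0.28, adjusted p = 0.181). Both calls against WS were lost when any 1 of the 6 arrays was left out. The differences were then 0.65 to 0.85 (adjusted p = 0.0595 to 0.145) for UGT72B3 and 0.48 to 0.59 (adjusted p = 0.0666 to 0.131) for UGT87A2. With no filter both were lost too (adjusted p = 0.0843 and 0.0575), and with quantile normalization that of UGT72B3 (adjusted p = 0.058).

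Among the beta-glucosidases, BGLU44, whose enzyme prefers mannosides, read 9.15, 8.69 and 8.93 in the mutant and 10.19, 10.39 and 10.39 in WS. It fell by 1.40 (SE 0.24, adjusted p = 0.0012), to 2.64-fold less signal. The Col-0 arrays read 8.14, 9.29 and 9.49, on both sides of the mutant, with a difference of -0.05 (adjusted p = 0.887). Without Col-0 replicate 1, the lowest, the difference from Col-0 was -0.46 (adjusted p = 0.0124). BGLU45, whose enzyme hydrolyses the monolignol glucoside coniferin, read 6.56, 6.52 and 6.18 on the mutant arrays, 7.97, 7.51 and 7.66 on those of WS, and 6.26, 8.36 and 7.98 on those of Col-0. It fell by 1.29 relative to WS (SE 0.39, adjusted p = 0.0362) and by 1.12 relative to Col-0 (SE 0.39, adjusted p = 0.0278). Col-0 replicate 1 lay far below the other Col-0 arrays and overlapped with the mutant, whose values are all under the filter value. The call against Col-0 was lost without Col-0 replicate 2 (-0.70, adjusted p = 0.163) or 3 (-0.89, adjusted p = 0.109), without mutant replicate 2 (-1.17, adjusted p = 0.052) or 3 (-0.99, adjusted p = 0.0873), and with only the arrays compared (adjusted p = 0.0936). The call against WS was lost without any 1 of the 6 arrays, at -1.39 to -1.17 (adjusted p = 0.0609 to 0.12). It was also lost with no filter (adjusted p = 0.0609) and with quantile normalization (adjusted p = 0.0625). The adjacent gene BGLU46, whose enzyme also hydrolyses monolignol glucosides, read 9.61, 9.24 and 9.65 in the mutant, 9.77, 10.01 and 9.98 in WS and 9.53, 10.63 and 10.96 in Col-0. It was at -0.42 against WS (adjusted p = 0.351, or 0.0477 with only the arrays compared) and fell by 0.87 relative to Col-0 (SE 0.28, adjusted p = 0.0166), where Col-0 replicate 1 again overlapped with the mutant. BGLU46 was named after its values were seen. The second call was lost without Col-0 replicate 2 (-0.74, adjusted p = 0.0699) or 3 (-0.58, adjusted p = 0.0973), without mutant replicate 2 (-0.75, adjusted p = 0.071) and with only the arrays compared (adjusted p = 0.0604).

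BGLU15, whose enzyme hydrolyses a flavonol glycoside, read 11.11, 11.21 and 10.98 in the mutant and 10.33, 10.72 and 10.77 in WS. It rose by 0.49 (SE 0.13, adjusted p = 0.0191). The call was lost without WS replicate 1 (0.35, adjusted p = 0.097), mutant replicate 1 (0.49, adjusted p = 0.0526) or mutant replicate 2 (0.44, adjusted p = 0.0826), and Col-0 (10.81 to 11.08) overlapped with the mutant. Of the 8 calls against WS only those of UGT71C1 and BGLU45 were also made in the same direction against Col-0.

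**Figure D2:**
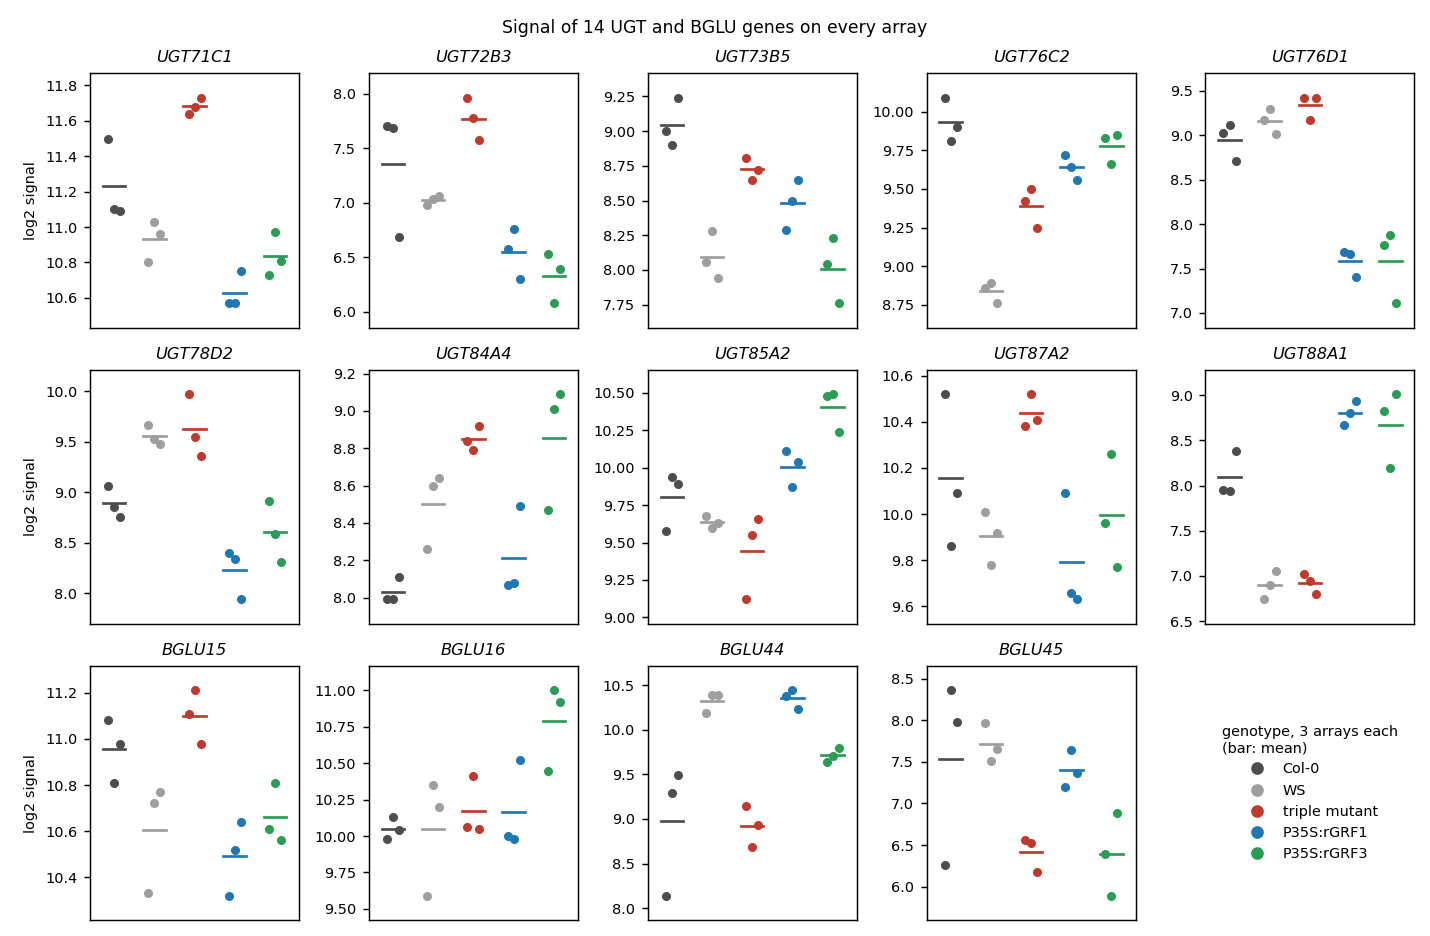
Log2 signal of the 14 members called without array overlap in any of 3 comparisons (the mutant with WS, or either line with Col-0). This rule chose the genes to show, and the share of all probe sets that meet it is not given here. Each point is 1 array and bars are means of 3. The mutant lies above every other genotype at UGT71C1, and both overexpression lines lie far below the 3 other genotypes at UGT76D1.

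In P35S:rGRF1 roots most UGT genes that changed against Col-0 fell. Of 22 UGT genes 5 fell and 1 rose, and of 7 BGLU genes 1 fell and 1 rose. These 8 are 27.6% of the members tested, beside 10.5% of all probe sets (5.3% higher and 5.17% lower). The median difference was -0.13 over the 29 genes and 0.03 over all probe sets.

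UGT76D1, whose enzyme glucosylates dihydroxybenzoic acids formed from salicylic acid, was the member that fell most. Its arrays read 7.69, 7.66 and 7.41 in P35S:rGRF1 against 9.02, 9.11 and 8.71 in Col-0. WS (9.17, 9.29 and 9.01) and the mutant (9.42, 9.17 and 9.42) were at or above the Col-0 level. The fall against Col-0 was 2.56-fold, -1.36 on the log2 scale (SE 0.18, adjusted p = 0.000402). The salicylic acid glucosyltransferase genes UGT74F1 and UGT76B1 were at -0.25 (adjusted p = 0.349) and -0.30 (adjusted p = 0.386).

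UGT71C1 read 10.57, 10.57 and 10.75 in the line, below all Col-0 arrays, and fell by 0.60 (SE 0.12, adjusted p = 0.00509). UGT72B3 (6.58, 6.76 and 6.30) fell by 0.81 (SE 0.24, adjusted p = 0.0396), although Col-0 replicate 3 (6.69) lay within the range of the line. UGT73B5 (8.29, 8.50 and 8.65) fell by 0.57 (SE 0.15, adjusted p = 0.0231). Each of these 3 genes had risen in the mutant against WS. UGT78D2, which encodes the flavonoid 3-O-glucosyltransferase of anthocyanin synthesis, read 8.40, 8.34 and 7.94 in the line and 9.06, 8.85 and 8.76 in Col-0, and fell by 0.66 (SE 0.18, adjusted p = 0.0273). It was at 0.06 in the mutant against WS (adjusted p = 0.861).

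UGT88A1 was the UGT gene that rose. It read 8.67, 8.80 and 8.93 in P35S:rGRF1 and 7.95, 7.94 and 8.38 in Col-0, a rise of 0.71 (SE 0.19, adjusted p = 0.0269). The WS arrays (6.74 to 7.06) and the mutant arrays (6.80 to 7.02) lay well below both, with a mutant difference of 0.02 from WS (adjusted p = 0.961). BGLU44 rose 2.60-fold, by 1.38 (SE 0.24, adjusted p = 0.00263), to 10.38, 10.44 and 10.23, and BGLU15 fell by 0.46 (SE 0.13, adjusted p = 0.0332), to 10.32, 10.52 and 10.64. In BGLU44 the line reached the level of WS.

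Of the 8 calls, those of UGT71C1, UGT76D1 and BGLU44 were kept under every alternative run. The others were lost without Col-0 replicate 1, at -0.64 (adjusted p = 0.167) for UGT72B3, -0.59 (0.053) for UGT73B5, -0.58 (0.104) for UGT78D2, 0.64 (0.0994) for UGT88A1 and -0.40 (0.123) for BGLU15. Omission of other single arrays also ended calls. UGT72B3 lost its call without Col-0 replicate 2 or any P35S:rGRF1 replicate, UGT88A1 without the same 4 arrays, UGT73B5 without Col-0 replicate 3 or P35S:rGRF1 replicate 1 or 2, UGT78D2 without Col-0 replicate 2 or P35S:rGRF1 replicate 2 or 3, and BGLU15 without Col-0 replicate 3 or P35S:rGRF1 replicate 1 or 2. Over these omissions the adjusted p ran from 0.0514 to 0.149 and the differences kept their sign. UGT72B3 was also not called with no filter (adjusted p = 0.0766) or with only the arrays compared (0.116). BGLU15 was not called with only the arrays compared (adjusted p = 0.055).

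**Figure D3:**
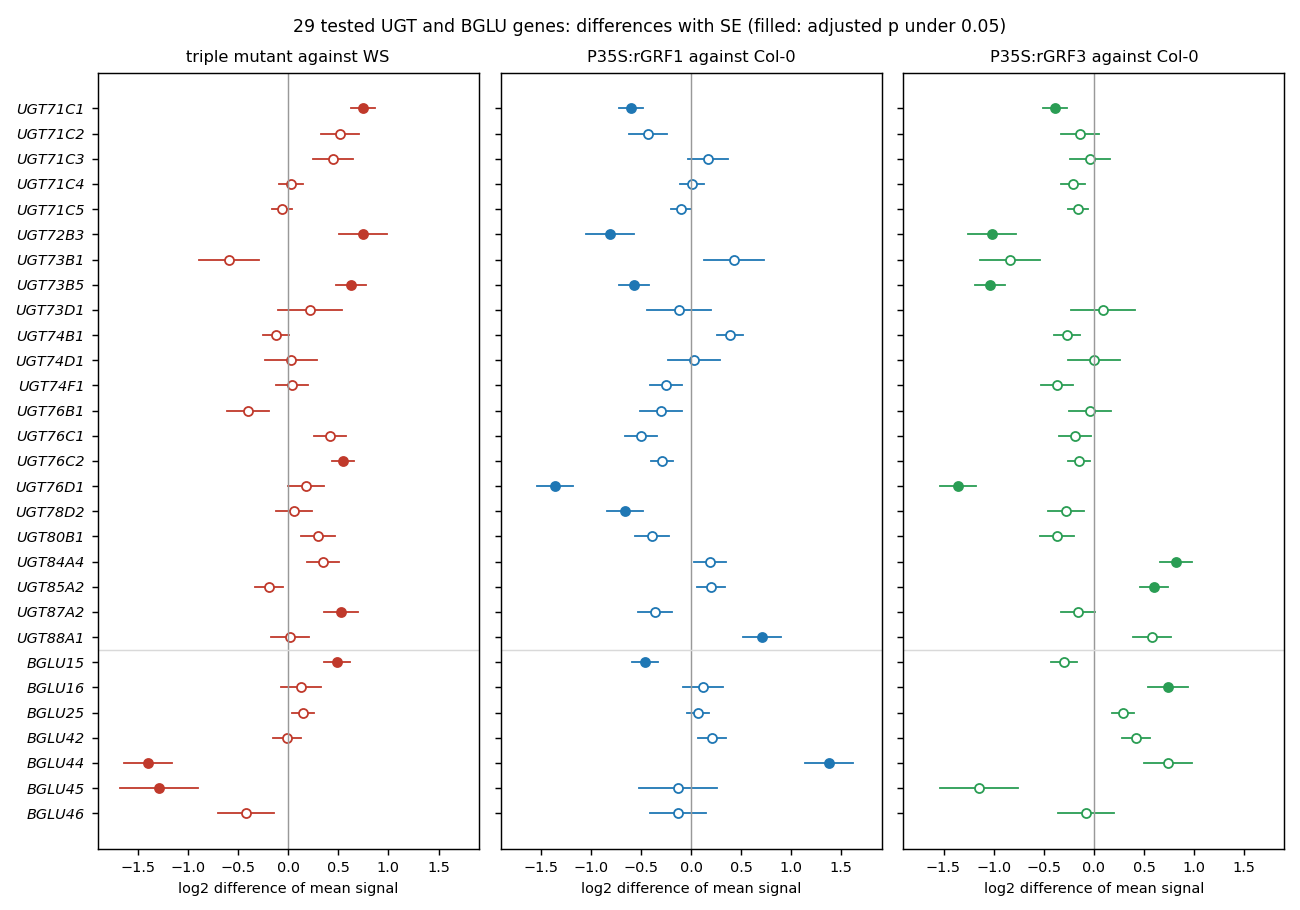
Log2 difference of mean signal (point) with its SE (line) for the 29 tested genes in 3 comparisons within 1 set of arrays; filled points have an adjusted p under 0.05 and the grey line parts UGT from BGLU genes. The filled UGT points are all above 0 in the mutant and mostly below 0 in the lines.

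Several members changed in opposite directions in the triple mutant and in P35S:rGRF1. The comparisons of the mutant with WS and of P35S:rGRF1 with Col-0 share no array. UGT71C1 (0.75 and -0.60), UGT72B3 (0.75 and -0.81), UGT73B5 (0.63 and -0.57), BGLU15 (0.49 and -0.46) and BGLU44 (-1.40 and 1.38) were called in both, with opposite signs in all 5. The same held for the array as a whole: of 618 probe sets called in both comparisons, 605 (97.9%) had opposite signs. Over all 13648 probe sets 69.6% had opposite signs, and over the 29 members 62.1%. The correlation between the differences was -0.58 across the 29 members and -0.65 across all probe sets. Genes are not independent replicates, and these values only describe the arrays. The opposition at these members was part of one that ran over the whole array, and the share of opposite signs was not higher among the members. Technical measures differed within the array sets too, with poly-A controls at 9.46 ± 0.24 (log2, SD, n = 3) in P35S:rGRF1 and 8.60 ± 0.51 in Col-0, and 7.95 ± 0.24 in the mutant and 8.20 ± 0.14 in WS. Their part in the result was not tested.

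**Figure D4:**
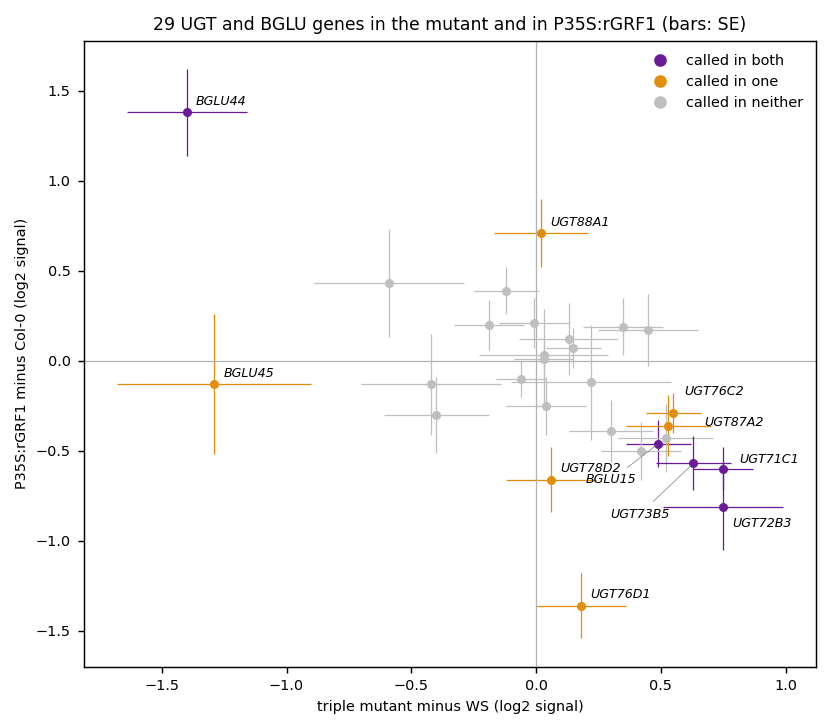
Log2 difference of the triple mutant from WS (horizontal) and of P35S:rGRF1 from Col-0 (vertical) for the 29 tested genes, with SE bars; colours show in how many of the comparisons a gene was called. The 5 genes called in both lie in the quadrants of opposite sign, with BGLU44 alone at upper left.

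In P35S:rGRF3 roots the UGT genes went both ways. Against Col-0 4 of 22 UGT genes fell and 2 rose, and 1 of 7 BGLU genes rose. These 7 are 24.1% of the members tested, beside 11.9% of all probe sets (5.3% higher and 6.61% lower). The median difference was -0.16 over the 29 genes and -0.02 over all probe sets. Of the 7 calls, 4 were also made in the same direction against WS, with all arrays and without the replicate number as a block. In that comparison 15 of 29 members (51.7%) and 52.4% of all probe sets were called (19.4% higher and 33.0% lower).

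UGT76D1 read 7.77, 7.88 and 7.11 in P35S:rGRF3, as low as in P35S:rGRF1. It fell by 1.36 against Col-0 (SE 0.18, adjusted p = 9.69e-05) and by 1.57 against WS (SE 0.18, adjusted p = 2.78e-06). UGT72B3 (6.53, 6.08 and 6.39) fell by 1.02 against Col-0 (SE 0.24, adjusted p = 0.0096) and by 0.69 against WS (SE 0.24, adjusted p = 0.0217). The first call was lost without Col-0 replicate 2 (-0.86, adjusted p = 0.0579) and with only the arrays compared (adjusted p = 0.0839), the second without WS replicate 3 (-0.68, adjusted p = 0.0548) or P35S:rGRF3 replicate 2 (-0.57, adjusted p = 0.0875). In both genes the line lay below all arrays of both wild types.

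UGT73B5 (8.04, 8.23 and 7.76) fell by 1.04 against Col-0 (SE 0.15, adjusted p = 0.000184) and was at -0.08 against WS (adjusted p = 0.662). UGT71C1 (10.73, 10.97 and 10.81) fell by 0.39 against Col-0 (SE 0.12, adjusted p = 0.0376) and was at -0.10 against WS (adjusted p = 0.506). The call of UGT71C1 was lost without Col-0 replicate 1 (-0.26, adjusted p = 0.135) and without P35S:rGRF3 replicate 1 (-0.34, adjusted p = 0.13) or 3 (-0.38, adjusted p = 0.08), with no filter (adjusted p = 0.0508) and with only the arrays compared (adjusted p = 0.187). Both genes were lower in WS than in Col-0, by 0.95 for UGT73B5 and 0.30 for UGT71C1, so their change depends on which wild type is the control. The lower UGT71C1 level in WS was not called without Col-0 replicate 1 (-0.16, adjusted p = 0.237) or WS replicate 1 (-0.23, adjusted p = 0.154) or 3 (-0.31, adjusted p = 0.0729).

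Among the members that rose, UGT84A4, of the enzymes that form glucose esters of hydroxycinnamic acids, read 8.47, 9.01 and 9.09 in P35S:rGRF3 against 7.99, 7.99 and 8.11 in Col-0 and 8.26, 8.60 and 8.64 in WS. It rose by 0.82 against Col-0 (SE 0.16, adjusted p = 0.00364), with 0.35 against WS (adjusted p = 0.083). The difference from WS was called without P35S:rGRF3 replicate 1 (0.55, adjusted p = 0.00816) and with quantile normalization (0.48, adjusted p = 0.0193). UGT85A2 read 10.48, 10.49 and 10.24, above the arrays of every other genotype, and rose by 0.60 against Col-0 (SE 0.14, adjusted p = 0.0106) and 0.76 against WS (SE 0.14, adjusted p = 0.000287). Its Col-0 arrays read 9.58, 9.94 and 9.89 and its WS arrays 9.68, 9.60 and 9.63. BGLU16 read 10.45, 11 and 10.92 in the line, 9.98, 10.13 and 10.04 in Col-0 and 9.59, 10.35 and 10.20 in WS. It rose by 0.74 against Col-0 (SE 0.20, adjusted p = 0.0212) and 0.75 against WS (SE 0.20, adjusted p = 0.00452). The line lay above all wild-type arrays at UGT85A2 and BGLU16. The BGLU16 call against Col-0 was lost without Col-0 replicate 3 (0.74, adjusted p = 0.0503) or P35S:rGRF3 replicate 2 (0.64, adjusted p = 0.0736) or 3 (0.68, adjusted p = 0.0641), and that of UGT85A2 with only the arrays compared (adjusted p = 0.0577). P35S:rGRF3 replicate 3 had poly-A controls at 6.96, where replicates 1 and 2 had 9.02 and 8.78.

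BGLU44 was intermediate in P35S:rGRF3. Its arrays read 9.64, 9.71 and 9.80, above all Col-0 arrays and below all WS arrays, and its difference from Col-0 of 0.74 was not called (adjusted p = 0.0554). It was called without Col-0 replicate 2 (0.90, adjusted p = 0.0493) or 3 (1.00, adjusted p = 0.012) and with quantile normalization (0.76, adjusted p = 0.0488). BGLU45 (6.39, 5.89 and 6.88) was at -1.15 against Col-0 (adjusted p = 0.0667), and it fell by 1.79 without Col-0 replicate 1 (adjusted p = 0.000217) and by 1.40 without P35S:rGRF3 replicate 3 (adjusted p = 0.0472). Against WS it fell by 1.33 (SE 0.39, adjusted p = 0.00915), a call kept under every alternative run. UGT88A1 (8.82, 8.19 and 9.01) was at 0.58 against Col-0 (adjusted p = 0.0555), called without Col-0 replicate 3 (0.73, adjusted p = 0.0324) or P35S:rGRF3 replicate 2 (0.83, adjusted p = 0.00506) and with quantile normalization (adjusted p = 0.0421). It rose by 1.78 against WS (SE 0.19, adjusted p = 1.4e-06).

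The 2 overexpression lines differed from each other at 5 of 29 members (17.2%, beside 21.2% of all probe sets, 8.63% higher and 12.6% lower). These 5 are named because they are all the members called, a choice made after their values were seen. UGT73B1 read 8.89, 9.26 and 9.14 in P35S:rGRF1 and 7.65, 7.57 and 8.26 in P35S:rGRF3, a difference of P35S:rGRF3 from P35S:rGRF1 of -1.27 (SE 0.30, adjusted p = 0.00711). UGT74B1, which encodes the S-glucosyltransferase of glucosinolate synthesis, read 11.30, 11.34 and 11.41 in P35S:rGRF1 and 10.81, 10.46 and 10.78 in P35S:rGRF3, a difference of -0.66 (SE 0.13, adjusted p = 0.00248). At both genes the lines did not overlap. Neither line was called against Col-0 with all arrays and without the replicate number as a block. UGT73B1 was called in P35S:rGRF3 without Col-0 replicate 1 (-1.19, adjusted p = 0.00896) or P35S:rGRF3 replicate 3 (-1.06, adjusted p = 0.0441). UGT74B1 was called in P35S:rGRF1 without Col-0 replicate 3 (0.54, adjusted p = 0.0131) and with the block (0.39, adjusted p = 0.0457). UGT73B5 was lower in P35S:rGRF3 (-0.47, SE 0.15, adjusted p = 0.0327), and UGT84A4 (0.64, SE 0.16, adjusted p = 0.012) and BGLU16 (0.63, SE 0.20, adjusted p = 0.0329) were higher. The calls of the last 3 were each lost without P35S:rGRF1 replicate 2, at -0.46 (adjusted p = 0.0801), 0.57 (0.0506) and 0.53 (0.118). They were also lost without P35S:rGRF1 replicate 1 for UGT84A4 (0.57, adjusted p = 0.0589) and BGLU16 (0.54, adjusted p = 0.124) and without P35S:rGRF3 replicate 3 for UGT73B5 (-0.34, adjusted p = 0.116) and BGLU16 (0.56, adjusted p = 0.0853). For UGT73B5 the omission of P35S:rGRF1 replicate 3 (-0.38, adjusted p = 0.131) or P35S:rGRF3 replicate 1 (-0.48, adjusted p = 0.0618) also ended the call, as did that of P35S:rGRF3 replicate 2 for BGLU16 (0.52, adjusted p = 0.116). With quantile normalization (-0.38, adjusted p = 0.0809) and with only the arrays compared (adjusted p = 0.0658) UGT73B5 was not called.

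Between the wild types 14 of 29 members differed (48.3%, beside 51.7% of all probe sets, 31.4% higher and 20.3% lower), 6 higher and 8 lower in WS. UGT73D1 fell furthest, from 7.90 ± 0.76 (log2 signal, SD, n = 3) in Col-0 to 6.22 ± 0.47 in WS, by 1.69 (SE 0.32, adjusted p = 0.000344). UGT88A1 was lower in WS (-1.19, SE 0.19), as was UGT76C2 (-1.10, SE 0.11, adjusted p = 7.72e-07). BGLU44 was higher in WS by 1.35 (SE 0.24), UGT80B1, which encodes a sterol glucosyltransferase, by 0.78 (SE 0.17, adjusted p = 0.00145), and UGT78D2 by 0.67 (SE 0.18, adjusted p = 0.00472). Mean UGT80B1 levels were 8.87 ± 0.16 for WS and 8.10 ± 0.27 for Col-0. The mutant was at 9.17 ± 0.13, and the lines were at 7.71 ± 0.08 (P35S:rGRF1) and 7.72 ± 0.36 (P35S:rGRF3). At UGT73D1 (6.43 ± 0.30) and UGT88A1 (6.92 ± 0.11) the mutant differed from WS by 0.22 (adjusted p = 0.717) and 0.02 (adjusted p = 0.961), and it was lower than Col-0 by a log2 difference of -1.47 (adjusted p = 0.00131) and -1.17 (adjusted p = 0.000116). In total, 15 of 29 members (51.7%, beside 45.1% of all probe sets, 28.1% higher and 17.0% lower) were called in the mutant against Col-0, 6 higher and 9 lower. Both comparisons cross the array sets, so ecotype and array set cannot be told apart. Whether Col-0-based probes bind WS or mutant RNA less well at the genes with lower signal was not tested either.

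Of the 64 members 42 lie in 18 groups of neighbouring genes, counting members at most 3 protein-coding genes apart in the TAIR10.1 gene order. In 4 of the groups at least 2 members passed the filter. In the row UGT71C5, UGT71C4 and UGT71C3 none was called in the mutant against WS or in either line against Col-0. Of the pair UGT71C1 and UGT71C2 only UGT71C1 was called, in all 3 of these comparisons, and UGT71C2 was at 0.52, -0.43 and -0.14. UGT76C2 and UGT76C1 had like differences in the mutant against WS (0.55 and 0.42), in P35S:rGRF1 (-0.29 and -0.50) and in P35S:rGRF3 (-0.15 and -0.19), of which 1 was called. BGLU45 and BGLU46 were at -1.29 and -0.42 in the mutant against WS, with BGLU45 called, and both fell relative to Col-0 (-1.12 and -0.87). In P35S:rGRF1 (-0.13 and -0.13) and P35S:rGRF3 (-1.15 and -0.08) neither was called against Col-0 with all arrays. BGLU28 and BGLU29, next to BGLU15, did not pass the filter. All 64 probe sets have the plain suffix by which the array's maker marks probes for a single transcript, but signal from a near-identical neighbour was not tested.

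Among the dim members, values were given by a fit with no filter, in which 1 of the 35 was called over the mutant against WS and both lines against Col-0. Over all 22746 probe sets this fit called 7.59%, 4.97% and 6.29% in these comparisons. This was BGLU28, called in P35S:rGRF1, whose enzyme takes part in the breakdown of glucosinolates under sulfur shortage. It read 3.15, 4.35 and 5.25 in P35S:rGRF1, 8.25, 7.35 and 5.72 in Col-0, and 3.06, 4.83 and 5.15 in WS. The mutant arrays read 6.35, 5.96 and 5.36 and those of P35S:rGRF3 8.65, 9.28 and 7.0. The difference was -2.86 in P35S:rGRF1 against Col-0 (SE 0.72, adjusted p = 0.0335) and 4.06 between P35S:rGRF3 and P35S:rGRF1 (SE 0.72, adjusted p = 0.0017). The P35S:rGRF3 arrays were the highest group and overlapped with Col-0, and the size of the difference rests on dim signals. UGT84A1, another gene for hydroxycinnamate glucose esters, read 6.41, 6.14 and 6.34 in WS and 6.81, 6.10 and 4.65 in the mutant. The Col-0 arrays read 5.53, 3.75 and 2.32, those of P35S:rGRF1 2.03, 1.06 and 2.72, and those of P35S:rGRF3 3.91, 1.49 and 2.65. All these values lie under the filter value. BGLU33, for a vacuolar enzyme that frees abscisic acid, read 7.87, 7.99 and 8.10 on the mutant arrays, 5.86, 6.90 and 6.32 on those of WS and 7.86, 6.67 and 5.32 on those of Col-0. With WS the difference was 1.63 (SE 0.48, adjusted p = 0.0503). The mutant arrays were the highest of any genotype, and its difference from Col-0 was 1.37 (SE 0.48, adjusted p = 0.0405). These 3 genes were chosen after their values were seen.

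Few of the listed genes that make the substrates had a probe set of their own in the annotation used. The array may detect others that the annotation does not name. Losses of calls under the alternative runs are not given here for these listed genes or for those of the next paragraph. Calls with an adjusted p near 0.05, such as those of HCT, are therefore to be read with caution. Of 19 phenylpropanoid genes 2 were tested. HCT, which acts in monolignol synthesis, rose by 0.33 in the mutant against WS (adjusted p = 0.045) and fell by 0.36 in P35S:rGRF1 (adjusted p = 0.0368), and CCR2 was not called in either. Of 11 coumarin genes 3 were tested. F6'H1 (AT3G13610), which acts in scopoletin synthesis, rose by 0.65 in the mutant against WS (SE 0.11, adjusted p = 0.000787) but was lower than in Col-0 by a log2 difference of -1.25, and F6'H2 (AT1G55290) fell by 0.70 in P35S:rGRF1 (SE 0.19, adjusted p = 0.0292). Of 21 flavonoid genes 1 was tested, CHIL, at -1.14 in P35S:rGRF1 and -0.97 in P35S:rGRF3, neither called. Of 47 glucosinolate genes 2 were tested, BCAT4 and GSTU20. Both fell in the mutant against WS (-3.49, adjusted p = 0.000568, and -0.94, adjusted p = 0.0148), where 6.54% of all probe sets were lower. Both rose in P35S:rGRF1 (2.2, adjusted p = 0.0182, and 1.17, adjusted p = 0.00629), where 5.3% were higher. Opposite signs were also found at 97.9% of all probe sets called in both comparisons. UGT74B1 of the same pathway was at -0.12 and 0.39 in these comparisons, uncalled with all arrays and no block (adjusted p = 0.599 and 0.0711). Its rise in P35S:rGRF1 was called without Col-0 replicate 3 and with the replicate number as a block, as given above.

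Of 15 ER body genes, whose compartment stores beta-glucosidases in roots, 5 were tested and 3 rose in the mutant against WS, NAI1 by 0.78, NAI2 by 0.52 and JAL22 by 0.59, where 7.38% of all probe sets were higher. Relative to Col-0, the mutant level of NAI2 was lower (-0.41, adjusted p = 0.0317), that of NAI1 was not called (0.17, adjusted p = 0.282) and that of JAL22 was higher (1.19, adjusted p = 3.9e-07). The other tested genes, JAL33 and JAL34, were not called against WS (0.48, adjusted p = 0.103, and 0.29, adjusted p = 0.181). JAL33 was far lower than in Col-0 both in the mutant (-3.53, adjusted p = 5.26e-10) and in WS (-4.01, adjusted p = 1.2e-10). JAL34 was not called in the mutant against Col-0 (0.28, adjusted p = 0.113). In P35S:rGRF1 NAI1, NAI2 and JAL22 were at -0.08, 0.17 and 0.19, uncalled, and in P35S:rGRF3 1 gene fell, JAL22, by 0.77. Of 29 hormone genes 2 were tested. GH3.17, for an enzyme that conjugates auxin to glutamate, rose by 0.87 in the mutant against WS (SE 0.16, adjusted p = 0.00202) and fell by 1.3 in P35S:rGRF3 against Col-0 (SE 0.16, adjusted p = 5.22e-05), and WES1 (GH3.5) rose by 0.47 in P35S:rGRF1 (adjusted p = 0.0436).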

How the data were processed

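Roots of 5 genotypes were profiled on 15 arrays, grouped by the labels. Each holds 22810 probe sets with 1 intensity value apiece, deposited by the authors as a linear signal. They made it with MAS5, per the submitters' processing notes; its version is not given in the sources used here. Signals lay between 0.001173 and 32792. Detection calls were not used, and the number of arrays limits the precision. No 2 arrays held the same values (highest correlation 0.9621).

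Here log2 was taken of each signal without an offset, and arrays were not normalized again because their medians lay within 0.149. Without the 64 control probe sets 22746 remained, of which 13648 reached the 40th percentile of mean log2 signal and were tested. A model of group means over the 15 arrays was run in limma 3.58.1 (lmFit and eBayes, with trend) under R 4.3.3 (package data.table, version 1.17.8). P-values were two-sided and adjusted by Benjamini-Hochberg over all probe sets tested, with a threshold of 0.05. An annotation gave 13513 probe sets 1 gene and 503 several. Of these names 13436 were found in a RefSeq gene list of TAIR10.1, which served for names and gene order.

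The members, lists and tests were chosen with earlier results of these data known. By rule, members called without overlap of arrays in the mutant against WS or in a line against Col-0 (14) are given by array. The 3 higher and 3 lower members that differ most between the wild types are given by group mean. These rules chose the genes to show, and the share of all probe sets called without overlap is not given here. The procedure was tested on simulated data. Alternatives were no filter, quantile normalization, a filter at the 60th percentile, a log2 offset of 16, the replicate number as a block, only the arrays compared, and each array left out in turn.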

Additional observations from a re-analysis of the deposited data

Results flagged for a closer look

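For 5 of the 29 members tested (17.2%, beside 21.2% of all probe sets) the effects of the overexpression lines, measured against the same Col-0 arrays, differed from each other by a direct test of P35S:rGRF3 against P35S:rGRF1 (limma, adjusted p under 0.05). UGT73B1 (-1.27, adjusted p = 0.00711), UGT74B1 (-0.66, adjusted p = 0.00248) and UGT73B5 (-0.47, adjusted p = 0.0327) were lower in P35S:rGRF3, and UGT84A4 (0.64, adjusted p = 0.012) and BGLU16 (0.63, adjusted p = 0.0329) were higher. The calls of UGT73B1 and UGT74B1 were kept under every alternative run.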

How the results depend on the processing

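No call of a named member changed direction under any alternative run. The count of 8 members called in the mutant against WS was 5 with no filter, that of 7 in P35S:rGRF3 against Col-0 was 4 with only the arrays compared, and that of 15 in P35S:rGRF3 against WS was 8 at the 60th percentile, where 19 members were tested. With each array left out in turn the counts ran from 4 to 6 in the mutant against WS, 3 to 7 in P35S:rGRF1 against Col-0, 6 to 9 in P35S:rGRF3 against Col-0, 13 to 15 in P35S:rGRF3 against WS, 10 to 13 in WS against Col-0, 10 to 17 in the mutant against Col-0 and 2 to 5 between the lines. The counts over all probe sets ran from 1158 to 1392 (1900 with all arrays), 586 to 1554 (1429) and 973 to 1793 (1626) in the first 3 of these, and from 1672 to 2897 (2891) between the lines. With only the arrays compared they were 919 in P35S:rGRF1 and 621 in P35S:rGRF3 against Col-0. Fewer arrays leave fewer degrees of freedom. Calls kept under every alternative numbered 4 of 8 in the mutant against WS (UGT71C1, UGT73B5, UGT76C2 and BGLU44), 3 of 8 in P35S:rGRF1 (UGT71C1, UGT76D1 and BGLU44) and 3 of 7 in P35S:rGRF3 (UGT73B5, UGT76D1 and UGT84A4) against Col-0. Deviations of arrays with the same replicate number had correlations of -0.175 to 0.251. With 3 arrays a group these cannot show whether such samples were grown or processed together. With the replicate block 9, 9 and 7 members were called in these 3 comparisons, UGT71C1 was no longer called in P35S:rGRF3 against Col-0 (adjusted p = 0.056) or WS against Col-0 (0.0605), nor UGT85A2 in the mutant against Col-0 (0.0588). Calls gained with the block were UGT88A1 in P35S:rGRF3 (0.0457) and UGT74B1 in P35S:rGRF1 (0.39, adjusted p = 0.0457) against Col-0, UGT84A4 in P35S:rGRF3 against WS (0.044) and UGT78D2 between the lines (0.0373). It changed no other call of the members whose single results were followed under the alternatives. The rise from 8 to 9 members in the mutant against WS came from outside these. Signals under the filter value limit what can be said of the dim members.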
